A study of Mus musculus with 2 samples.

Results

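Complement is a cascade of blood and tissue proteins that marks targets for removal, recruits leukocytes, and can form a pore in membranes. In the classical pathway C1q, built of A, B, and C chains, recognises a target and activates its partner proteases C1r and C1s, which cleave C4 and C2 to form an enzyme that cleaves C3. The alternative pathway cleaves C3 with factor B, and C1 inhibitor, made from Serping1, blocks C1r and C1s. Macrophages are the main source of C1q in tissue, while fibroblast-like and other stromal cells are known to make C1r, C1s, C3, factor B, and C1 inhibitor.

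The genes described here were 9 of the 24091 genes in the deposited table, taken by symbol. They comprised 3 C1q chains (C1qa, C1qb, and C1qc) and 6 other genes (C1ra, C2, C4b, C3, Cfb, and Serping1). The members were chosen from the difference between the same libraries that is given below, with the values known, so those differences are a description and no test was applied. All 9 genes passed the filter on low values.

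The data were 2 polyadenylated RNA libraries of cells from gonadal fat of C57BL/6 mice, 1 sham-irradiated (labelled as no radiation) and 1 pelvically irradiated. The dose is given as 7.5 Gy with 5 days, without stating whether it was per day. Both titles also name PBS, and the labels do not say what received it. Fat was taken 2 months after radiation, digested with collagenase, and the floating cells were kept in culture for 3 days. The labels give neither age nor sex nor how many mice each library came from. As each condition had a single library, radiation and any other difference between the cultures cannot be told apart, and differences have no replicate check.

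Levels are FPKM, meaning fragments per 1000000 sequenced and per kilobase of the listed gene, and a difference is irradiated minus sham on the log2(FPKM + 0.1) scale. The interval in brackets is the exact 95% binomial interval of the ratio of fragments between the libraries and covers counting error only. The depth recovered from the values was 30577000 fragments for the sham library and 34995000 for the irradiated library. The label is primary adipocytes, and of 10 mature adipocyte markers 2 passed the filter on low values. The defining markers Adipoq and Plin1 were below it, at an FPKM of 0.133 (sham) and 0.232 (irradiated) and of 0.254 and 0.478, respectively. Fabp4, a fatty acid carrier also found in endothelial cells and macrophages, had 96.9 in both libraries, and the lipase gene Pnpla2 had 5.11 and 5.76. The fibroblast gene Col1a1 had 1937 and 1428, and the macrophage gene Lyz2 had 443 and 410.

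The promoters of C1qb and C1qc, which were higher in the irradiated library, are shown beside those of C1ra and C3, which were lower or only slightly higher. RefSeq promoter sequences (GRCm38.p6) matched 4 of the 9 symbols. Each run is the 250 bases before the start site, 5′ to 3′ on the gene's strand, and capitals mark a match to 1 of 5 short motifs. C1qb lies at chr4:136886201-136886450 on the minus strand, C1qc at chr4:136892915-136893164 on the minus strand, C1ra at chr6:124512371-124512620 on the plus strand, and C3 at chr17:57228137-57228386 on the minus strand.
C1qb: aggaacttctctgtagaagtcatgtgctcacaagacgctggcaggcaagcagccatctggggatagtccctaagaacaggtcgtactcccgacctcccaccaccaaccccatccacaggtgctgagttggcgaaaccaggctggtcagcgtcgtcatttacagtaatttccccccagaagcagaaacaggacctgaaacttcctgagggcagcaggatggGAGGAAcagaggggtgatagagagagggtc
C1qc: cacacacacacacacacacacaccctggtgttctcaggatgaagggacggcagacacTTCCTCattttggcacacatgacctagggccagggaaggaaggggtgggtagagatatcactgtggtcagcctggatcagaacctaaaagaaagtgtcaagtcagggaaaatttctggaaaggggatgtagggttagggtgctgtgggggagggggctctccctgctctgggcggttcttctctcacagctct
C1ra: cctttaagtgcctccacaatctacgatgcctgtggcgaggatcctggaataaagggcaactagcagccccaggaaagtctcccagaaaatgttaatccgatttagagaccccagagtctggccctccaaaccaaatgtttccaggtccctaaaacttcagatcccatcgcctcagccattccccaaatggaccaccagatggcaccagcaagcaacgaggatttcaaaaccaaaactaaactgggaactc
C3: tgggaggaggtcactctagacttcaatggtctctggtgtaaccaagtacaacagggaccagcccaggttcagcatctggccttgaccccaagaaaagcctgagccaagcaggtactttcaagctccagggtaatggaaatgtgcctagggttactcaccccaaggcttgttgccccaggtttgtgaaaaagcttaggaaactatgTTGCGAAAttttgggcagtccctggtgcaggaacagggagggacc

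The motifs were searched on both strands and named for the factors that bind such letters. GAGGAA, the core for the myeloid factor PU.1, was present at -30 to -25 in C1qb and, as its reverse complement TTCCTC, at -193 to -188 in C1qc. It was not found in the C1ra and C3 windows, and 23.1% of 27025 promoters of this length, 1 per gene, held it. TTGCNNAA, a C/EBP core, was found only in C3 of these 4 windows, at -45 to -38 as TTGCGAAA, and in 9.55% of all promoters. None of the 4 windows held GAAANNGAA (interferon-stimulated response element core, 7.16% of all promoters), GGGANNTTC (NF-kB, 3.17%), or TATAAA (core promoter box, 13%). A match is a description of letters, and its part in the levels below was not tested.

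The C1q chains were higher in the irradiated library. C1qa, the A chain, had an FPKM of 12.5 in the sham library and 21.9 in the irradiated library, on 414 and 827 fragments. Its difference was 0.80 (0.63 to 0.98), or 1.75-fold. C1qc, the C chain, had 12.3 and 21.5, on 395 and 789 fragments, with a difference of 0.80 (0.63 to 0.98). C1qb, the B chain, had 15.5 and 21.01, on 501 and 779 fragments, with a difference of 0.44 (0.28 to 0.61), or 1.36-fold. All 3 counting intervals lay above 0.

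The C1q chains assemble in equal numbers as proteins, which were not measured here. Their RNA levels per length were close to each other in the irradiated library and less so in the sham library. In the sham library C1qb was the highest, and the ratio of the highest to the lowest chain was 1.26. In the irradiated library the same ratio was 1.04, and the counting intervals of the 3 levels overlapped. The ratio of C1qa to C1qb was 0.811 in the sham library and 1.04 in the irradiated library, a log2 change of 0.36 (0.12 to 0.60, exact conditional interval). The ratio of C1qa to C1qc changed by 0.00 (-0.25 to 0.25). The 3 genes lie within 18.7 kb on chromosome 4 (mm10, 136880145 to 136898844), all on the minus strand in the order C1qb, C1qc, C1qa by coordinate, and each has 3 exons in GENCODE M21. The nearest listed genes that do not overlap this cluster were Ephb2, an ephrin receptor with an FPKM of 3.93 and 3.13 and a difference of -0.32, and Epha8, with 3 and 0 fragments. The table also gives Eno1b a span on the plus strand (48045335 to 150248873) that covers the cluster, with 58 fragments in each library.

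The partner proteases of C1q did not share this difference. C1ra, which encodes the C1r protease, had an FPKM of 23.2 in the sham library and 20.4 in the irradiated library, on 2256 and 2278 fragments, a difference of -0.18 (-0.27 to -0.10). C1s1, which encodes the C1s protease and is not among the 9 genes, had 55.6 and 56.4, a difference of 0.02 (-0.03 to 0.07). Their near-identical copies, C1rb and C1s2, had an FPKM below 1, and fragments shared between copies may have been counted for either. The fragments of the 3 C1q chains relative to those of C1ra and C1s1 together were higher in the irradiated library by 0.71 (0.61 to 0.82) on the log2 scale. The level of C1qa relative to C1ra was 0.541 in the sham library and 1.07 in the irradiated library. C1ra is on chromosome 6 (124512621 to 124523440, plus strand), with C1s1 as the next listed gene at 6903 bases and on the opposite strand.

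Serping1, the inhibitor of C1r and C1s, had the highest level of the 9 genes in both libraries and the lowest difference. It had an FPKM of 229 in the sham library and 190 in the irradiated library, on 12871 and 12216 fragments. The difference was -0.27 (-0.31 to -0.23), or 0.829-fold. The ratio of Serping1 to C1s1 was 4.12 and 3.37, respectively. By level it ranked 183rd of all listed genes in the sham library and 230th in the irradiated library. Serping1 lies on chromosome 2 (84765360 to 84775429, minus strand).

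**Figure D1:**
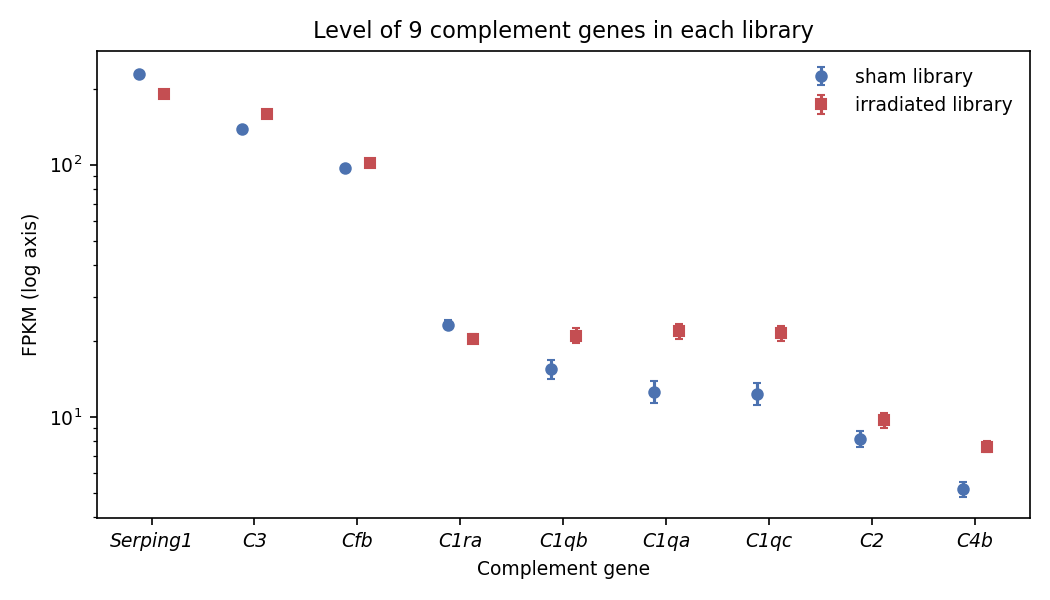
FPKM on a log axis of the 9 complement genes in the sham library (circles) and the irradiated library (squares), ordered by the sham level, with 95% Poisson intervals that cover counting error only. C1qa, C1qb, and C1qc move from 12.3 to 15.5 in the sham library to 21.01 to 21.9 in the irradiated library, level with C1ra at 20.4.

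The components of the C3-cleaving enzymes had small to moderate differences, all above 0. C3, the central protein of the cascade, had an FPKM of 139 in the sham library and 159 in the irradiated library, on 21668 and 28292 fragments, a difference of 0.19 (0.16 to 0.22). Cfb, which encodes factor B, the protease of the alternative pathway, had 96.9 and 101.7, a difference of 0.07 (0.03 to 0.11). Both were among the more abundant genes, with C3 in place 336 and Cfb in place 510 of the sham library. Each deposited value is rounded to 0.01, which is a larger part of the Cfb difference than of any other of the 9 genes.

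The classical pathway substrates C2 and C4b were lower in level than C3 and Cfb, and C4b had a larger difference. C2, the protease of the classical enzyme, had an FPKM of 8.18 and 9.68, on 657 and 890 fragments, a difference of 0.24 (0.10 to 0.39). The interval of C2 includes the C3 difference of 0.19. C4b, which encodes the C4 protein, had 5.18 and 7.63, on 847 and 1429 fragments, a difference of 0.55 (0.44 to 0.68). C4b was the lowest of the 9 genes in both libraries, with a C3 level 26.8 times as high in the sham library and 20.8 times in the irradiated library. The difference of C4b exceeded that of C2, with a log2 change of their ratio of 0.32 (0.12 to 0.51).

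C2, Cfb, and C4b lie within 153.7 kb of each other on chromosome 17, all on the minus strand, in the major histocompatibility complex. Cfb (34856374 to 34862514) and C2 (34862602 to 34882100) are 87 bases apart, yet the Cfb level was 11.8 times that of C2 in the sham library and 10.5 times in the irradiated library. C4b (34728381 to 34743897) is contained in the span that the table lists for its near-identical copy C4a (34728381 to 34823454), whereas GENCODE M21 starts C4a at 34809092. C4a had 7 fragments in each library. How fragments common to C4a and C4b were counted is not stated in the labels, so the C4b level is uncertain. Tnxb, the next listed gene before C4b, encodes the matrix protein tenascin-X and had an FPKM of 2.09 and 2.95, a difference of 0.48, while Nelfe, 1 base from Cfb, had 19.5 and 18.4, a difference of -0.08. C3 lies apart from these genes on the same chromosome, from 57203967 to 57228136.

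Read against the whole table, C1qa, C1qc, and C4b had the larger differences, while C1qb, at 0.44, was below the 0.5 counted here. The filter kept 11253 genes that reached an FPKM of 1 in either library. Of these, 4.31% were higher by 0.5 or more and 1.44% were lower by as much. Of the 9 genes, 3 were higher by at least 0.5 (C1qa, C1qc, and C4b) and 0 were lower. With a pseudocount of 1 the number was 2, as C4b then had a difference of 0.48. A counting interval above 0 was common, at 23.8% of the 11253 genes, and 17.4% had one below 0. Among the 9 genes, 7 intervals lay above 0 and 2 below, those of C1ra and Serping1. The members were chosen with these differences known, so the shares are not read as a result.

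The median difference was 0.80 for the C1q chains and 0.13 for the other 6 genes, which ranged from -0.27 to 0.55, beside 0.02 over all 11253 genes. The contrast of the medians was 0.67. C4b, at 0.55, lay above C1qb, at 0.44, so the sets overlapped by gene. Of all fragments on listed genes, the C1q chains held 0.00494% in the sham library (exact binomial interval 0.00467 to 0.00521) and 0.00787% in the irradiated library (0.00756 to 0.00819). The other 6 genes held 0.175% (0.173 to 0.176) and 0.180% (0.179 to 0.182), respectively. The order by level was Serping1, C3, and Cfb in both libraries, followed by C1ra in the sham library and by the C1q chains in the irradiated library. C1qa and C1qc did not differ in the sham library beyond their counting intervals, and C1qa, C1qc, C1qb, and C1ra overlapped neighbour by neighbour in the irradiated library.

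**Figure D2:**
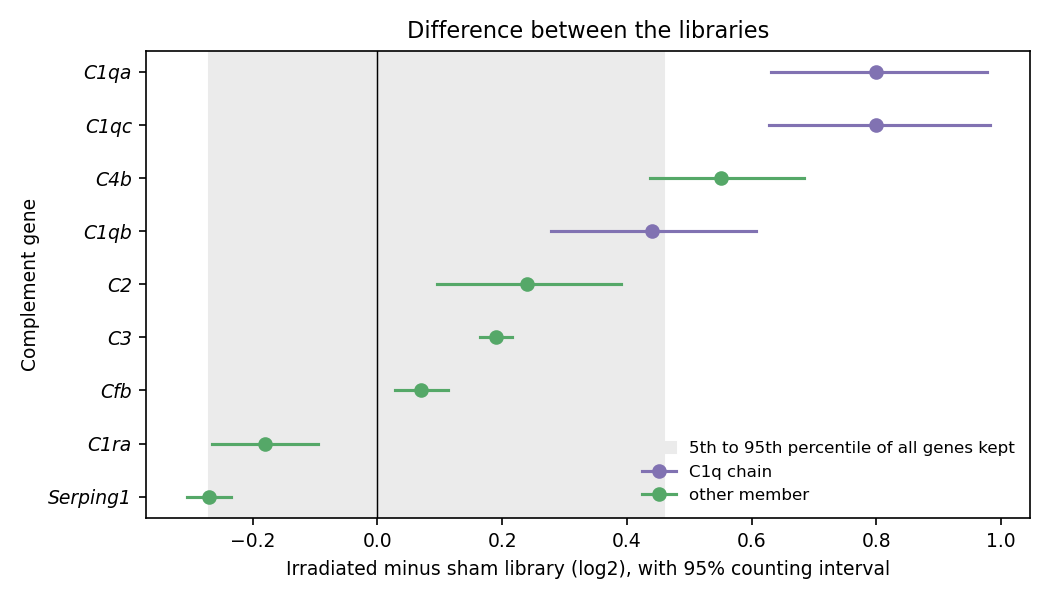
Difference between the irradiated and the sham library on the log2 scale for the 9 genes (points), with 95% counting intervals (lines) and the 5th to 95th percentile of the 11253 genes kept (grey, -0.27 to 0.46). C1qa and C1qc at 0.80 and C4b at 0.55 lie to the right of the grey band, and C1qb at 0.44 lies inside it.

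Macrophage genes were also higher in the irradiated library on balance. Of 21 macrophage markers, with C1q left out of the list, 19 passed the filter, with a median difference of 0.38 (from -0.14 to 0.83) and with 7 genes past 0.5 upwards and 0 downwards. Their counting intervals lay above 0 for 13 and below 0 for 1. Over all 11253 genes, 4.31% were past 0.5 upwards and 1.44% downwards, and intervals lay above 0 for 23.8% and below 0 for 17.4%. A pseudocount of 1 gave a marker median of 0.36. The 7 genes were not recounted with it, and it lowers the differences of genes with a low FPKM. Summed over the 21 genes, the FPKM was 848 in the sham library and 995 in the irradiated library, and 0 of the markers were without fragments. The markers nearest to C1qa and C1qc were Trem2, a lipid-sensing receptor, with 9.28 and 16.6 and a difference of 0.83 (0.64 to 1.03), and Cd68, a lysosomal glycoprotein, with 59.2 and 96.9 and a difference of 0.71 (0.64 to 0.79). The protease gene Ctss, with 133 and 211, had a difference of 0.66 (0.61 to 0.71).

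Other defining macrophage markers differed less. Lyz2, which encodes lysozyme, had a difference of -0.11 (-0.14 to -0.08), and Adgre1, which encodes F4/80, had 15.7 and 15.5, a difference of -0.02 (-0.12 to 0.08). Csf1r, the receptor for the macrophage growth factor CSF1, had 10.6 and 13.8, a difference of 0.38 (0.30 to 0.47). The median of the C1q chains exceeded that of the macrophage markers by 0.42. That C1q median is the value of C1qa and C1qc, while C1qb, at 0.44, was close to the marker median of 0.38. Counted in fragments, C1q relative to the 19 markers was higher in the irradiated library by 0.38 (0.28 to 0.48). Lyz2 supplied 14249 of the 38632 marker fragments of the sham library, and without it the value was 0.19 (0.09 to 0.29), an alternative chosen after seeing the data. The value depended on the marker. It was 0.79 (0.68 to 0.89) relative to Lyz2, 0.70 (0.56 to 0.84) relative to Adgre1, and 0.29 (0.16 to 0.42) relative to Csf1r. Relative to Ctss it was 0.02 (-0.09 to 0.12), to Cd68 -0.04 (-0.16 to 0.09), and to Trem2 -0.16 (-0.38 to 0.06), and these intervals include 0. Ctss, Cd68, and Trem2 had the largest differences of the 19 markers, so values near 0 follow from which markers were taken. In bulk RNA, more macrophages and more C1q RNA per macrophage cannot be told apart.

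**Figure D3:**
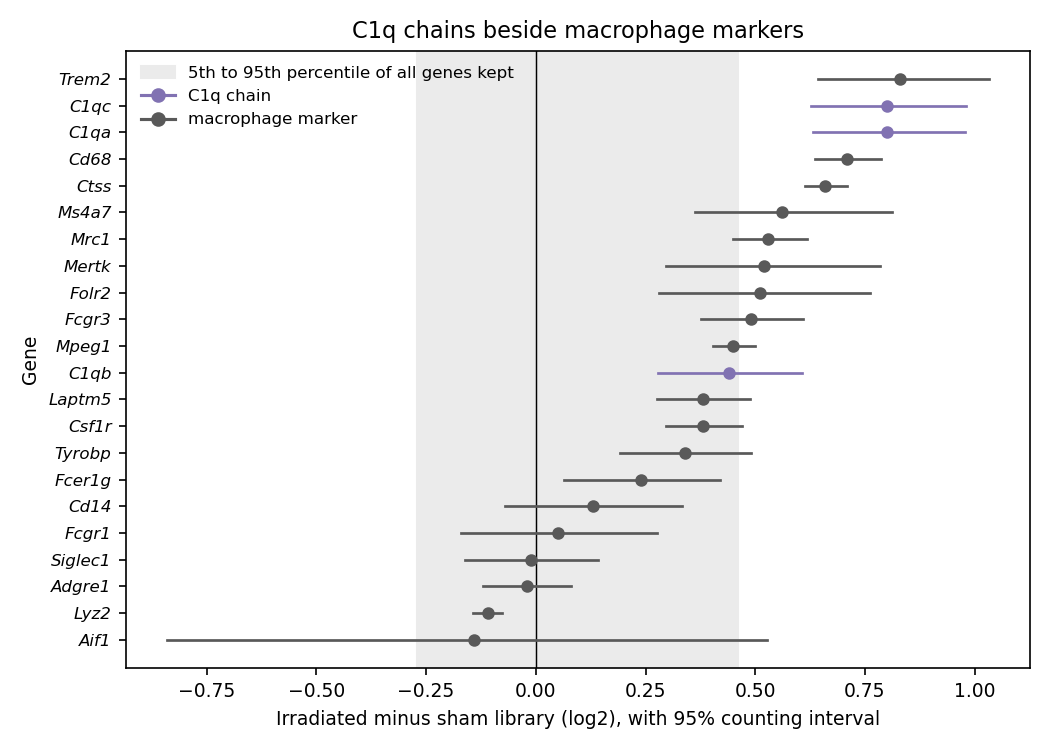
Difference between the irradiated and the sham library on the log2 scale, with 95% counting intervals (lines), for the 3 C1q chains (purple) and 19 macrophage markers with an FPKM of at least 1 (grey points), over the 5th to 95th percentile of all genes kept (grey band). C1qa and C1qc stand at 0.80, below Trem2 at 0.83 and above Cd68 at 0.71, while Lyz2 at -0.11 and Adgre1 at -0.02 stand near 0.

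Markers of other cells also differed between the libraries, and their part in the complement levels was not tested. The 12 fibroblast and progenitor markers had a median of -0.03 (from -0.55 to 0.44), with a summed FPKM of 4486 and 3591, all with fragments, and Pdgfra, a receptor of fibroblasts and progenitors, had 95.6 and 73.9, a difference of -0.37. The largest differences of that list were those of Pi16, at -0.55, and of Col1a1 and Dpp4, at -0.44 and 0.44, and its most abundant genes were Col1a1 and Col3a1, the latter at -0.33. The 9 mesothelial markers had a median of 1.16 (from -0.13 to 2.18), and 8 of them were higher by at least 0.5, led by Msln, with 0.520 and 2.71. Their summed FPKM was 35.4 and 51.1, all with fragments. Of all genes that passed the filter, 4.31% were higher by at least 0.5. Msln, Upk3b, Krt18, Krt19, and Gpm6a were below an FPKM of 1 in the sham library, so they passed only through the irradiated library. Hepatocytes are the main source of blood complement, and the 5 hepatocyte markers were below 1, with 4 of them without fragments in the sham library and 5 in the irradiated library.

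Of the wider complement system, written as a list of 54 genes that includes the 9, 24 passed the filter. Their median difference was 0.305 (from -0.27 to 0.80), 7 were past 0.5 upwards, and 0 were past it downwards. Without the 9 genes, 15 of 45 passed, with a median of 0.33, and 4 were higher by at least 0.5, namely Fcna, Clu, Cd55, and Itgb2. Fcna, below an FPKM of 1 in the sham library, passed the filter only through the irradiated library. Counting intervals of the 15 lay above 0 for 11 and below 0 for 1. Over the whole table the shares were 4.31% for a difference of at least 0.5 upwards, 23.8% for an interval above 0, and 17.4% for an interval below 0. With a pseudocount of 1, Fcna and C4b were at 0.42 and 0.48, and 5 of the 54 genes were past 0.5.

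Other components of the cascade were mostly low. Cfp, which encodes properdin, the stabiliser of the alternative enzyme, had an FPKM of 14.3 and 18.3, a difference of 0.35 (0.21 to 0.49). Cfd, the adipocyte-made factor D that activates factor B, had 0.747 and 0.928, on 21 and 30 fragments. In the lectin pathway, Fcna, a ficolin of macrophages, had 0.718 and 1.29, a difference of 0.77 (0.19 to 1.55) on 29 and 60 fragments, and the scavenger collectin Colec12 had 71.9 and 77.6, a difference of 0.11. The other 7 lectin pathway genes, among them Mbl1, Mbl2, Masp1, and Masp2, were below 1. Of the 7 terminal pathway genes, C7 alone passed the filter, with 6.67 and 6.01, a difference of -0.15 (-0.32 to 0.02). Hc, which encodes C5, and C6, C8a, C8b, C8g, and C9 were below 1.

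Regulators differed in both directions. Clu, which encodes clusterin, an inhibitor of the membrane pore, had an FPKM of 10.5 and 17.1, a difference of 0.69 (0.55 to 0.84). Among the membrane regulators, Cd55, which speeds the decay of the C3-cleaving enzymes, had 4.01 and 6.72, a difference of 0.73 (0.59 to 0.90), and Cd59a, a blocker of the pore, had 3.31 and 4.25, a difference of 0.35 (0.09 to 0.64). Cr1l, which encodes the rodent regulator Crry, had 11.7 and 10.7, a difference of -0.13 (-0.21 to -0.05). Of these 4, Cr1l alone was lower in the irradiated library, as Serping1 was.

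Receptors for complement fragments were higher in the irradiated library in 5 of the 6 cases that passed the filter, with a median of 0.31, while 53.5% of the 11253 genes were higher. C3ar1, the receptor for C3a, had an FPKM of 20.4 and 28.2, a difference of 0.46 (0.39 to 0.53), and C5ar1, the receptor for C5a, had 11.8 and 14.3, a difference of 0.28 (0.16 to 0.41). Itgb2, the shared chain of the integrin receptors for cleaved C3, had 28.3 and 40.7, a difference of 0.52 (0.45 to 0.59). Its partners Itgam and Itgax had differences of 0.09 (0.03 to 0.15) and -0.01 (-0.24 to 0.21). Cd93, named as a C1q receptor in early work and present on endothelial and myeloid cells, had 16.5 and 20.7, a difference of 0.33. Of the 30 complement genes below 1, 3 are named after their values were seen because their counting intervals lay above 0. The share of such intervals among all genes below 1 was not computed, so this number is not read as a result. Vsig4, a receptor of tissue macrophages for C3 fragments, had 5 and 29 fragments (interval of the ratio 0.96 to 4.07), Cd46, a membrane regulator, had 4 and 19 (0.46 to 4.07), and C5ar2, the other C5a receptor, had 50 and 95 (0.22 to 1.26).

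**Figure D4:**
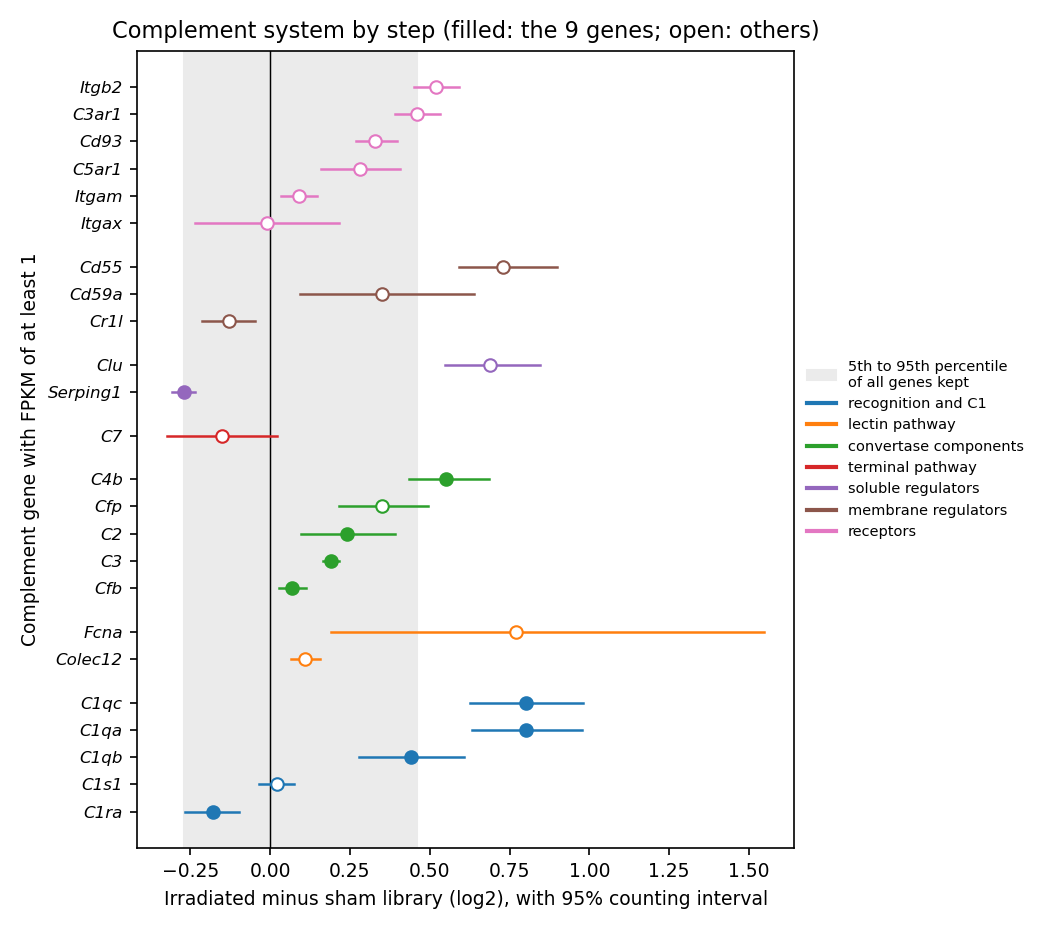
Difference between the irradiated and the sham library on the log2 scale for the 24 complement genes with an FPKM of at least 1, grouped by step of the cascade (colours), with 95% counting intervals (lines) and the 5th to 95th percentile of all genes kept (grey). Filled points are the 9 genes and open points are others. C1qa and C1qc at 0.80, Cd55 at 0.73, and Clu at 0.69 lie to the right, and Serping1 at -0.27, C1ra at -0.18, C7 at -0.15, and Cr1l at -0.13 lie to the left.

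Transcription factors known to act on complement promoters had a median difference of 0.01 over 8 genes. Irf8, a myeloid factor, had an FPKM of 1.07 and 1.59, a difference of 0.53 (0.33 to 0.82), and Spi1, which encodes PU.1, had 8.53 and 10.5, a difference of 0.29 (0.10 to 0.49). The factors linked to inflammation differed less, with Irf1 at 0.16, Nfkb1 at 0.00, Rela at 0.02, and Stat3 at -0.05. Cebpb and Cebpd, known for acute-phase induction of C3, had differences of -0.18 and -0.28. Of the 8 factors, Irf8 alone was past 0.5, and 0 were past it downwards, beside 4.31% and 1.44% of all genes kept. Irf8 was near the filter, and its difference was not recomputed with a pseudocount of 1.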

How the data were processed

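The authors deposited 1 table of log2 values, log2(FPKM + 0.1) rounded to 2 decimals, for both libraries, with gene coordinates and lengths. The submitters' processing notes name the build mm10. No source used here names the aligner, the counter, or a filter. Libraries were grouped by their treatment labels. The paper with these data does not describe RNA sequencing, so no design was taken from it.

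FPKM was recovered by removing the logarithm and the 0.1. Depth was the total for which FPKM, length, and total gave whole fragments. All 2570 low genes of the sham library and 2518 of the irradiated library were whole to within 0.12 fragments. The filter kept 11253 genes, those reaching an FPKM of 1 in either library. A count of 0 allows up to 3 fragments, an FPKM of 0.0981 and 0.0857 at 1 kb. With 1 library per condition no test was made. PCR copies are not separate molecules, so intervals cover counting error only. Recovery, differences, and intervals were tested on simulated data. These held counting error only, with changes in genes with many fragments, so PCR copies and the intervals of low genes were not covered.

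Of the listed genes, 3 are not reported here and were left out of the lists. The members and lists were chosen with earlier results of these data known. The genes named were the 9 members, listed complement genes with an FPKM of at least 1 (the others as below 1), listed transcription factors, the 2 most abundant and 2 most different markers of the larger lists, defining markers, and nearest neighbours. Values of Cfd, Vsig4, Cd46, and C5ar2, below 1, of C4a, and of genes spanning a member were given after they were seen. Coordinates are those of the table. Of 23509 symbols also in GENCODE M21 (GRCm38), 13705 shared the chromosome and a start or an end coordinate. Alternatives were the pseudocount, the scaling, the filter, and the size of the difference counted. Scripts ran in Python 3.11.15 with SciPy 1.17.1, pandas 2.3.3, numpy 2.4.6, and matplotlib 3.10.9.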

Additional observations from a re-analysis of the deposited data

How the results depend on the processing

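No paired analysis was possible because no condition was sequenced more than once, and leaving out replicates was not an option. Each of the 9 genes stayed within its counting interval, with its sign, under all 5 alternatives for the pseudocount and the scaling (45 values). The scalings shifted the median of all genes by -0.02, -0.016, and -0.02. The medians of the C1q chains, of the other 6 genes, and of the macrophage markers also stayed within the median bounds of their genes' intervals. The contrasts between these medians stayed within such bounds too. The scalings move all genes alike and could not change a contrast, so only the pseudocount could alter it. With a pseudocount of 1, C1q minus the other 6 genes was 0.63, beside 0.67 in the main setting. C1q minus the macrophage markers was then 0.40, beside 0.42. Without a pseudocount both contrasts were as in the main setting.

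The counts depended on the settings. Over the whole table, 485 of the 11253 genes kept were higher and 162 lower by at least 0.5. Of the same genes, a pseudocount of 1 gave 263 and 95, and a difference of at least 1 gave 89 and 42. Without a filter 1324 and 681 of the 24091 listed genes were counted. A minimum FPKM of 5 gave 186 and 56, and the number of genes that reached it is not given here. In the complement list, 7 were higher and 0 lower, and a pseudocount of 1 gave 5 and 0, without Fcna and C4b. Without a filter the counts were 11 and 2, and at a difference of at least 1 they were 0 and 0. Of the 9 genes, counted under the same settings after seeing the data, 3 were higher, 2 with a pseudocount of 1 (without C4b), and 0 at a difference of at least 1. C1q relative to the macrophage markers, in summed fragments, was 0.38, and 0.19 without Lyz2. The filter and the threshold set by construction how many genes can be counted. Depth limits the complement genes below an FPKM of 1.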

Other observations

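Other blood cell markers were low. The lymphocyte list had 1 of 8 genes above the filter, Cd3g, with an FPKM of 1.12 and 0.617 and 35 and 22 fragments. The neutrophil list had 1 of 6, S100a8, with 2.10 and 1.47, and the dendritic cell list had 1 of 6, Ccr7, with 1.48 and 1.15. The 8 endothelial markers all passed the filter, with a median difference of 0.185 and 0 of them past 0.5 in either direction. Over all genes kept the shares were 4.31% upwards and 1.44% downwards. Among these, Cdh5, a junction protein, had 16.5 and 16.2, Pecam1 had 10.2 and 11.5, and the largest differences were those of Emcn and Kdr, at 0.33 and 0.31. The most abundant mesothelial marker, Wt1, had a difference of -0.13, and Upk1b had 0.97 and Krt19 1.46.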
